A study of Schizosaccharomyces pombe
Saccharomyces cerevisiae with 24 samples.

Results

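Total RNA of Saccharomyces cerevisiae was compared between cells pulsed with 4-thiouracil (4sU) and cells that were not, after 20 min in galactose. The comparison holds 4 of the 24 libraries of the series, 2 with 4sU and 2 without, chosen by fraction, time and pulse from the labels. All were diploid W303 cells grown in raffinose and then moved to galactose, and at 20 min 4sU was given to a portion of each culture for a further 6 min. The no-4sU cells were another portion of the same culture, and the replicates were separate cultures, so each library with 4sU has a partner without it. The 4 total RNA libraries at 60 min in galactose, 2 with and 2 without 4sU, had the same design and share the estimate of the spread. The other libraries of the series hold the labeled and unlabeled fractions of the same cultures.

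4sU is a uracil analog that yeast takes up and builds into new RNA in place of uracil. The thiol group lets new RNA be pulled down and separated from RNA made before the pulse. Total RNA is taken before that separation, so it holds old and new RNA together, and its comparison with and without 4sU shows which transcripts had another abundance in cells that had received the analog. In human cells high doses of 4-thiouridine, its nucleoside form, are known to disturb the making of ribosomal RNA. Ribosomal RNA is made as a long precursor with an external transcribed spacer at each end, 5′ ETS and 3′ ETS, which are cut off and degraded as the ribosome is assembled.

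Counts per library ran from 4380685 to 5897625, and reads mapped to S. pombe, the spike-in added as labeled cells, from 1853334 to 3258316. The libraries at 60 min had 4744186 to 25744071 counts. Summed over all genes, S. pombe-normalized counts (counts per 2000000 S. pombe reads) were 5.28 M and 3.73 M in replicates 1 and 2 with 4sU, against 4.73 M and 3.04 M without 4sU. The library with 4sU was thus the higher of its pair in each culture, by 1.12-fold in replicate 1 and 1.23-fold in replicate 2, but the groups overlapped. The means were 4.51 ± 1.10 M with 4sU and 3.89 ± 1.19 M without (SD, n = 2 each), with p = 0.667 in a two-sided exact permutation test that cannot go below 0.333. Without the 10 genes with the most counts the sums were 2.39 M and 1.70 M with 4sU, against 1.91 M and 1.27 M without. Nuclear reading frames took 38.8% and 39.4% of the counts with 4sU, against 34.7% and 35.0% without.

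Of 6069 genes tested, 70 were higher with 4sU (1.15%) and 29 were lower (0.478%) at a Benjamini-Hochberg adjusted p under 0.05. Here and below, an adjusted p is that of the quasi-likelihood test of edgeR over all genes unless another tool is named. A fold change is given with its standard error (SE). In this main fit the spread was pooled over genes, so neither the SE nor the p reflects the scatter of a gene's own replicates. Without adjustment, 896 genes had a p under 0.05. The fold changes of the higher genes ran from 1.30 to 5.13 on the log2 scale, leaving out 1 gene with no count in either library without 4sU, with a median of 1.76 over all 70, and those of the lower genes from -5.53 to -1.34 with a median of -1.95. Every called gene had changed by more than 2-fold. Changes over 4-fold were seen for 26 higher and 13 lower genes, and changes over 8-fold for 12 higher and 2 lower genes. With the culture as a replicate block, 198 genes were higher (3.26%) and 37 lower (0.61%), among them 69 of the 70 and 28 of the 29. DESeq2 called 139 higher and 22 lower genes, and a fit of the 4 libraries at 20 min alone called 24 higher and 14 lower.

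The calls sat on a shift of most genes. Over all genes the median log2 fold change was 0.36, with 79.0% of genes above 0, and the median ratio was 0.30 in replicate 1 and 0.41 in replicate 2. Without the 4sU library of replicate 1, or without the no-4sU library of replicate 2, this median was 0.09, without the 4sU library of replicate 2 it was 0.57, and without the no-4sU library of replicate 1 it was 0.69. With TMM scaling, which takes out a shift shared by most genes, the median was -0.02 and 80 genes were higher and 87 lower. On the S. pombe scale, more RNA per S. cerevisiae cell and more S. cerevisiae cells per S. pombe cell cannot be told apart. Both libraries with 4sU lay above both without for 2009 genes (33.1%) and below both for 277 genes (4.56%). Of the called genes, 69 of the 70 higher and 23 of the 29 lower had groups that did not overlap. The counts moved with each library. Without the no-4sU library of replicate 1 they were 179 higher and 17 lower, and without that of replicate 2 they were 40 higher and 42 lower. Without the 4sU library of replicate 1 they were 37 higher and 26 lower, and without that of replicate 2 they were 52 higher and 10 lower. In each of these 4 fits 20 of the higher and 5 of the lower genes were called, and in all 14 alternative fits 16 higher and 3 lower genes were. An older form of the quasi-likelihood fit, counted in the 14, gave the same calls as the main fit.

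**Figure D1:**
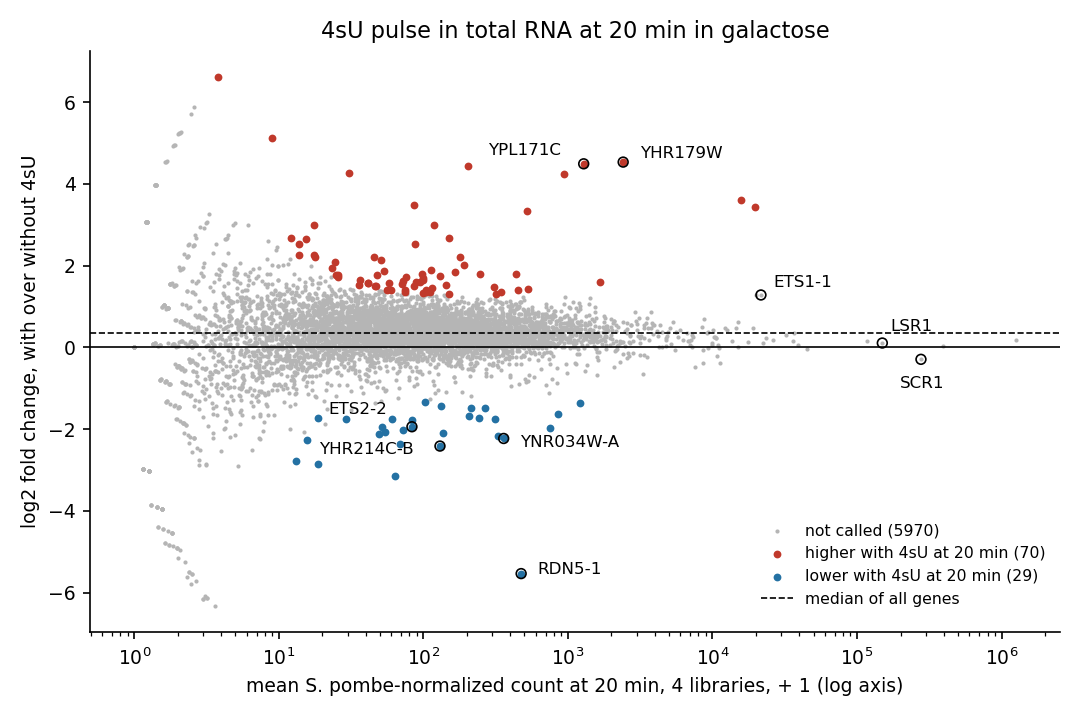
Log2 fold change in total RNA at 20 min, with over without 4sU, against the mean S. pombe-normalized count of the 4 libraries plus 1 on a log axis, with 1 point per gene. Red points are the 70 genes called higher, blue points the 29 called lower, and the dashed line is the median of all genes at 0.36. The cloud of uncalled genes lies above 0 over most of the range, and the called higher genes reach high levels.

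The shift was smaller at the lowest levels. With the genes divided into 4 bins of equal size by their mean level over the 8 total RNA libraries, the median log2 fold change was 0.19 in the lowest bin (levels up to 20.4 normalized counts), then 0.39, 0.39 and, in the highest bin, 0.36. The share of genes above 0 was 60.5%, 82.6%, 84.8% and 88.1% in the same order. Higher calls numbered 8, 21, 27 and 14 and lower calls 3, 9, 5 and 12 in these bins.

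The files give systematic IDs without gene symbols, so the reading frames are described by ID and no role is given, with at most 2 per direction in a comparison. YHR179W had 5218 and 4013 normalized counts with 4sU, against 269.8 and 130.7 without. No library without 4sU came within 10-fold of a library with it. The log2 fold change was 4.53 ± 0.44 (SE, edgeR adjusted p = 4.1e-21). At 60 min the values were 4549 and 5190 with 4sU, against 335 and 285 without, a log2 fold change of 3.97. The level with 4sU was much alike at both times. In the labeled fraction with 4sU at 20 min, YHR179W had 78395 and 70426 normalized counts, on a scale that cannot be set against that of total RNA.

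YPL171C had 2893 and 2018 normalized counts with 4sU, against 166.2 and 55.2 without, a log2 fold change of 4.49 ± 0.44 (SE, edgeR adjusted p = 4.1e-21). Its groups did not overlap either. At 60 min YPL171C had 779.8 and 820.5 normalized counts with 4sU, against 56.8 and 46.3 without. Both groups were lower than at 20 min, and the log2 fold change of 3.96 differed from that at 20 min by 0.53 ± 0.55 (SE, edgeR adjusted p = 0.959). In unlabeled RNA at 20 min, where most genes had fewer normalized counts with 4sU, YPL171C had 177.5 and 388.2 with 4sU, against 70.0 and 104.1 without.

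YNR034W-A had 147.8 and 103.8 normalized counts with 4sU, against 777.0 and 402.7 without. The groups were apart in both cultures, with a log2 fold change of -2.23 ± 0.39 (SE, edgeR adjusted p = 3.9e-06). At 60 min YNR034W-A had 39.8 and 36.1 with 4sU, against 500.6 and 572.4 without, a log2 fold change of -3.81. The difference between the times was 1.59 ± 0.53 (SE), which did not pass the adjustment in edgeR (adjusted p = 0.626). The level without 4sU was similar at both times.

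YHR214C-B had 37.6 and 43.7 normalized counts with 4sU, against 238.5 and 196.4 without, a log2 fold change of -2.41 ± 0.41 (SE, edgeR adjusted p = 1.1e-06). The groups did not overlap at 20 min. At 60 min the values were 217.9 and 61.1 with 4sU, against 34.7 and 250.0 without, so the cultures went in opposite directions and the log2 fold change was -0.02. The call at 20 min was lost with TMM scaling (adjusted p = 0.0908), with DESeq2 (0.216) and with a robust prior spread (0.376), and its values varied as much among libraries without 4sU as between the groups.

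**Figure D2:**
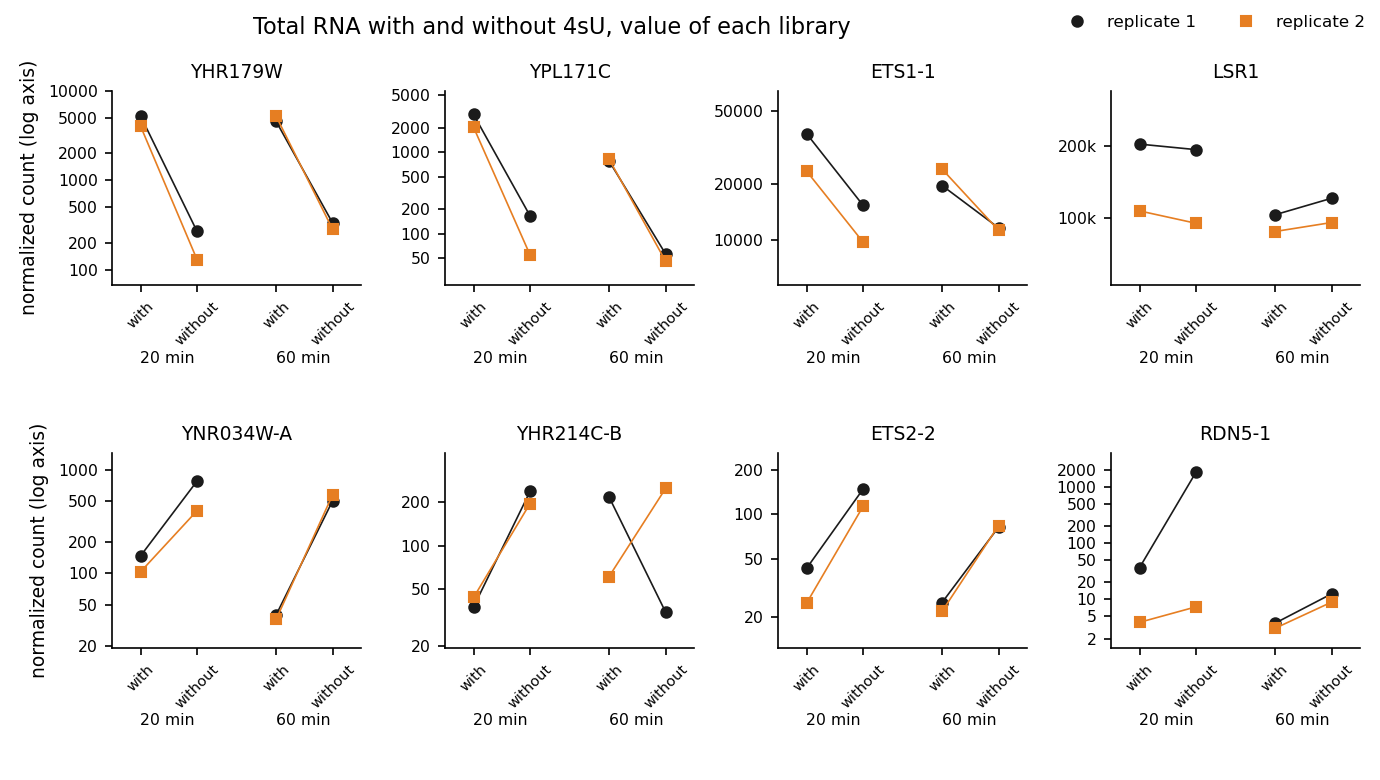
S. pombe-normalized counts (log axis) of 8 features in the 8 total RNA libraries, with 4sU on the left and without on the right at 20 and at 60 min. Each line joins the libraries of 1 culture, replicate 1 in black circles and replicate 2 in orange squares. YHR179W, YPL171C and ETS1-1 are higher with 4sU in all 4 pairs and YNR034W-A and ETS2-2 lower in all 4, while the high value of RDN5-1 is 1 library.

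The spacers at the ends of the ribosomal RNA precursor had fold changes of opposite sign. ETS1-1, a copy of the 5′ external transcribed spacer, had 37716 and 23630 normalized counts with 4sU, against 15438 and 9764 without. The groups did not overlap, and the log2 ratio was 1.29 in replicate 1 and 1.28 in replicate 2. The log2 fold change of ETS1-1 was 1.28 ± 0.39 (SE), and its edgeR adjusted p = 0.0606 missed the threshold. With the replicate block it was called (adjusted p = 0.00489, and 0.00515 for ETS1-2), as it was with TMM scaling (0.0181) and with DESeq2 (0.0114). ETS1-2, the near-identical second copy, which shares reads with it since multi-mapping reads were counted, had 35231 and 21863 with 4sU, against 14442 and 9096 without.

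The 3′ external transcribed spacer was lower with 4sU. ETS2-2 had 43.0 and 25 normalized counts with 4sU, against 147.8 and 112.9 without. This was a log2 fold change of -1.94 ± 0.41 (SE, edgeR adjusted p = 4.4e-04), and the groups did not overlap. Its copy ETS2-1, which likewise shares reads, had 45.7 and 28.9 with 4sU, against 147.8 and 109.3 without, a log2 fold change of -1.78 (adjusted p = 0.00158). Without the 4sU library of replicate 2 neither copy was called (adjusted p = 0.109 for ETS2-2 and 0.141 for ETS2-1).

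At 60 min the spacers had the same directions. ETS1-1 had 19744 and 24225 normalized counts with 4sU, against 11654 and 11310 without, a log2 fold change of 0.94 that was not called (edgeR adjusted p = 0.413). ETS2-2 had 25.2 and 22 with 4sU, against 81.8 and 83.7 without, a log2 fold change of -1.79 (adjusted p = 9.0e-04). In unlabeled RNA at 20 min, ETS1-1 had 1558 and 1338 with 4sU, against 22777 and 15743 without. ETS2-2 had 1.26 and 1.31 there with 4sU, against 67.7 and 105.0 without. Nearly all genes were lower with 4sU in that fraction, with a median log2 ratio of -1.83 and 0.565% of genes above 0 among the 3541 that averaged at least 50 normalized counts in total RNA at 20 min.

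The precursor feature RDN37-1 had 15940 and 4308 normalized counts with 4sU, against 13836 and 5632 without, a log2 fold change of 0.06 ± 0.39 (SE). RDN37-2 had 16838 and 11452 with 4sU, against 11324 and 8878 without, a log2 fold change of 0.49 ± 0.39 (SE). Neither was called, and the abundant ribosomal RNAs had been depleted from all libraries before sequencing. RDN5-1, a 5S ribosomal RNA gene, had 36.7 and 3.9 normalized counts with 4sU, against 1844 and 7.37 without. Its call as lower, with a log2 fold change of -5.53, rested on the no-4sU library of replicate 1, and without that library the log2 fold change was 1.43 (edgeR adjusted p = 0.163). RDN5-1 was also high in the unlabeled library without 4sU of the same culture, at 1364 against 16.4 in that with 4sU.

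Long-lived noncoding RNAs were not called in either direction. SCR1, the RNA of the signal recognition particle, had 341860 and 156660 normalized counts with 4sU, against 385628 and 224270 without, a log2 fold change of -0.29 ± 0.39 (SE). LSR1, the U2 RNA of the spliceosome, had 203161 and 107380 with 4sU, against 192734 and 95408 without, a log2 fold change of 0.11 ± 0.39 (SE). For both, replicates 1 and 2 differed by more than the groups. RPR1, the RNA of ribonuclease P, had a log2 fold change of 0.07 ± 0.39 (SE), and NME1, that of ribonuclease MRP, of 0.05 ± 0.39 (SE). These intervals still allow changes of the size of the shift of all genes.

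Among 70 snR features, which are small nucleolar and spliceosomal RNAs, none was called in either direction. Over all genes 1.15% were called higher and 0.478% lower, so few calls would be expected in a class of this size. The median log2 fold change of the snR features was 0.09, or -0.32 with TMM scaling. It was -0.29 without the 4sU library of replicate 1 and 0.29 without that of replicate 2. The U3 RNA snR17a, which guides the cleavage of the 5′ spacer, had 174750 and 73651 normalized counts with 4sU, against 140186 and 81471 without (log2 fold change 0.16 ± 0.39, SE). snR30, which serves in the making of 18S ribosomal RNA, had 57706 and 31386 with 4sU, against 57526 and 33346 without (log2 fold change -0.03). snR77 had 34.9 and 15.6 with 4sU, against 6.47 and 6.14 without, and its edgeR adjusted p was 0.0503, or 0.0384 with the replicate block.

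Of 5883 nuclear reading frames tested, 68 were higher and 26 lower. They made up 94.9% of the calls and 96.9% of the genes tested, so calls were about as frequent among them as among all genes. Their log2 fold changes had a median of 0.37, or -0.01 with TMM scaling, and with a single library at 20 min left out it ran from 0.09, without the 4sU library of replicate 1 or the no-4sU library of replicate 2, to 0.70, without the no-4sU library of replicate 1. They lay on all 16 nuclear chromosomes for the higher genes and on 12 for the lower. Reading frames with a letter suffix in the ID made up 322 of those tested. Of these, 5 were called higher (1.55%, against 1.15% of all genes) and 6 lower (1.86%, against 0.478%). Only 4 of the 6 had groups that did not overlap (23 of all 29 lower genes). Multi-mapping reads were counted, and whether these suffixed reading frames share reads was not tested, so they may not be separate counts.

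Of 20 mitochondrial features 1 was called higher (1.15% of all genes were). It was Q0080, with 169.3 and 132.7 normalized counts with 4sU, against 7.55 and 101.3 without. The low value was the no-4sU library of replicate 1, and the log2 ratio was 4.31 in replicate 1 and 0.39 in replicate 2. Q0080 was not called with TMM scaling (adjusted p = 0.594), with DESeq2 (0.490), with a robust prior spread (0.137) or with the 20 min libraries alone (0.221). Nor was it called without the no-4sU library of replicate 1 (0.309), the 4sU library of replicate 1 (0.364) or the 4sU library of replicate 2 (0.0537). The median of the mitochondrial features was 0.23, or -0.18 with TMM scaling, and 0.16 to 0.41 with 1 library left out. Of 72 tRNA genes 1 was called higher (1.15% of all genes were). This was tR(ACG)Q2, an arginine tRNA whose Q marks the mitochondrial genome, at 33.1 and 21.9 with 4sU, against 5.4 and 6.14 without. It was not called with TMM scaling (adjusted p = 0.0856), with the 20 min libraries alone (0.0862), without the 4sU library of replicate 1 (0.351) or without the no-4sU library of replicate 2 (0.128).

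The medians of tRNA genes, other noncoding RNAs and ribosomal DNA features turned sign with single libraries left out. That of tRNA genes was -0.01, or -0.41 with TMM scaling, and ran from -0.37 without the 4sU library of replicate 1 to 0.43 without the no-4sU library of replicate 1. Of 13 other noncoding RNAs none was called (1.15% of all genes were called higher and 0.478% lower). Their median was 0.05, or -0.33 with TMM scaling, and ran from -0.45 without the 4sU library of replicate 1 to 0.35 without that of replicate 2. Of 11 ribosomal DNA features 3 were called lower (0.478% of all genes were). These were the ETS2 copies, which share reads, and RDN5-1, whose call rested on 1 library. Over the 11 features the median was -1.18, or -1.45 with TMM scaling. It ran from -2.15 without the 4sU library of replicate 1 to 1.11 without the no-4sU library of replicate 1.

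**Figure D3:**
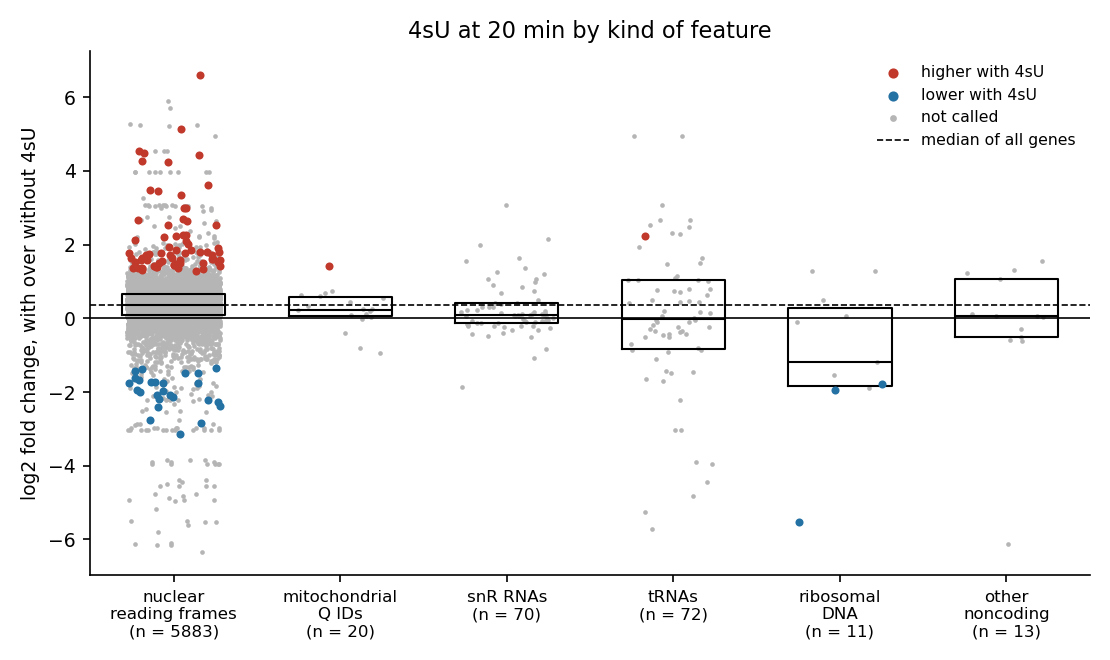
Log2 fold change at 20 min, with over without 4sU, for the features of each kind, with the number tested under each name. Boxes span the quartiles with the median as a line, red and blue points are called genes, and the dashed line is the median of all genes. The snR RNAs have a median of 0.09 (from -0.29 to 0.29 with 1 library left out) and nuclear reading frames one of 0.37 (from 0.09 to 0.70). Of the 11 ribosomal DNA features 3 are called lower (0.478% of all genes are). These are the ETS2 copies, which share reads, and RDN5-1, whose call rests on 1 library.

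A supplementary table of the study pairs 9 of the IDs with symbols. CYS4 (YGR155W), the cystathionine beta-synthase of cysteine synthesis, had 509.6 and 373.8 normalized counts with 4sU, against 240.6 and 160.8 without. The groups did not overlap. The log2 fold change was 1.14 ± 0.38 (SE, edgeR adjusted p = 0.0930), and the gene was called with the replicate block (adjusted p = 0.0156). RPS24A (YER074W), a protein of the small ribosomal subunit, had 781.8 and 497.9 with 4sU, against 363.7 and 306.3 without, with an adjusted p of 0.216 or, with the block, 0.0749. LOC1 (YFR001W), a nucleolar protein of ribosome assembly, had 727.2 and 478.4 with 4sU, against 356.1 and 330.2 without (adjusted p = 0.292). The groups of RPS24A and LOC1 did not overlap, while those of SUT2, CSR2, TOS3, NVJ1, ULA1 and MEC3 overlapped. Both libraries with 4sU lay above both without for 33.1% of all genes, so non-overlap does not set these genes apart. None of the 9 was called in the main fit.

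Of the 70 higher genes 69 were above 0 in both cultures (62.6% of all genes were), and of the 29 lower genes 24 were below 0 in both (10.9% of all genes were). The genes were called from these same cultures, so this describes the calls and is no separate evidence for them. In 2 higher and 5 lower genes a single library at 20 min was over 4 times the next. Across the 3541 genes that averaged at least 50 normalized counts, Pearson's r between the log2 ratios of the cultures was 0.639. This describes these libraries, since genes are not independent replicates.

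**Figure D4:**
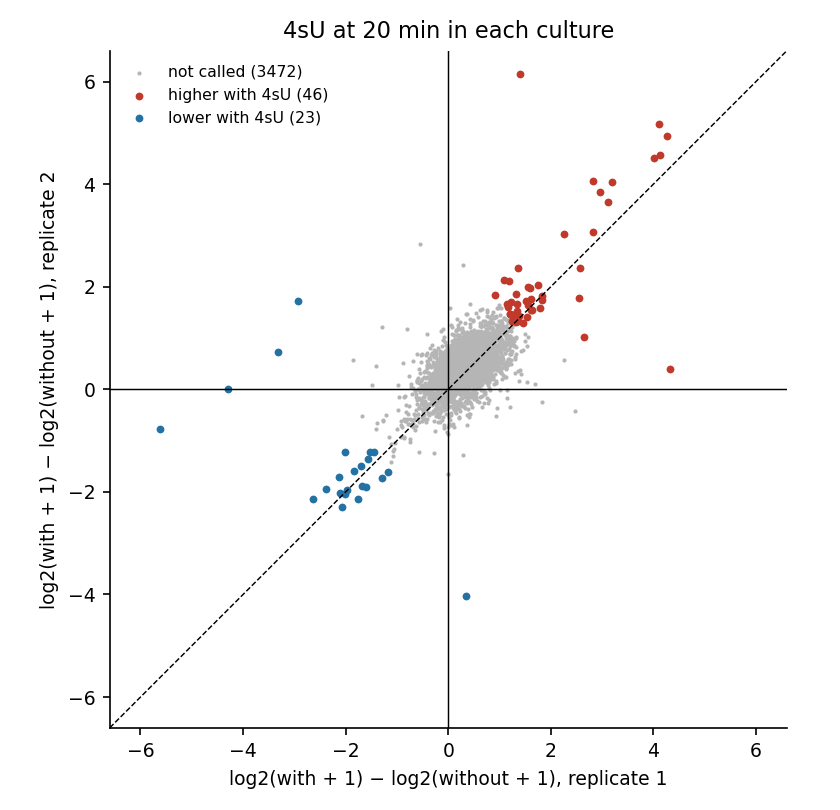
Log2 ratio of normalized counts plus 1, with over without 4sU, in the culture of replicate 2 against that of replicate 1 for genes averaging at least 50 normalized counts. Red and blue points are genes called higher and lower, and the dashed line marks equal ratios. Most called genes lie near the dashed line, and 4 blue points at the left and 1 below have their low ratio in 1 culture.

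The fold change was also set beside the ratio of labeled to total RNA with 4sU at 60 min, which comes from other libraries of the same cultures. With the 3541 genes that averaged at least 50 normalized counts at 20 min divided into 4 bins of equal size by this ratio, from low to high, the median log2 fold change at 20 min was 0.28, 0.36, 0.42 and 0.44. The same order was seen in each culture, with 0.23, 0.29, 0.35 and 0.40 in replicate 1 and 0.36, 0.46, 0.48 and 0.48 in replicate 2. With TMM scaling the lower bins were below 0, at -0.10 and -0.01, and the upper bins above it, at 0.04 and 0.06. The median of all genes moved by more than the bins differed when a library was left out. That move was not measured by bin, so whether the order of the bins holds with a library left out was not tested.

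At 60 min in galactose 41 genes were higher with 4sU (0.676%) and 37 lower (0.61%), and over all genes the log2 fold changes had a median of 0.07. With the replicate block 127 genes were called in all. With 1 library left out the count of 78 ran from 28, without the 4sU library of replicate 2 at 60 min, to 121, without the no-4sU library of replicate 1 at 20 min. Of the genes called at 60 min, 22 higher and 15 lower were also called at 20 min in the same direction, and 0 in the opposite direction. That is 31.4% of the higher genes at 20 min and 53.7% of those at 60 min, and 51.7% of the lower genes at 20 min and 40.5% of those at 60 min. Of the 70 genes higher at 20 min, 67 were above 0 at 60 min (57.6% of all genes were), with a median of 0.87. Of the 29 lower genes 23 were below 0 (42.4% of all genes were), with a median of -1.56. Each time has its own libraries, but the cultures were the same.

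**Figure D5:**
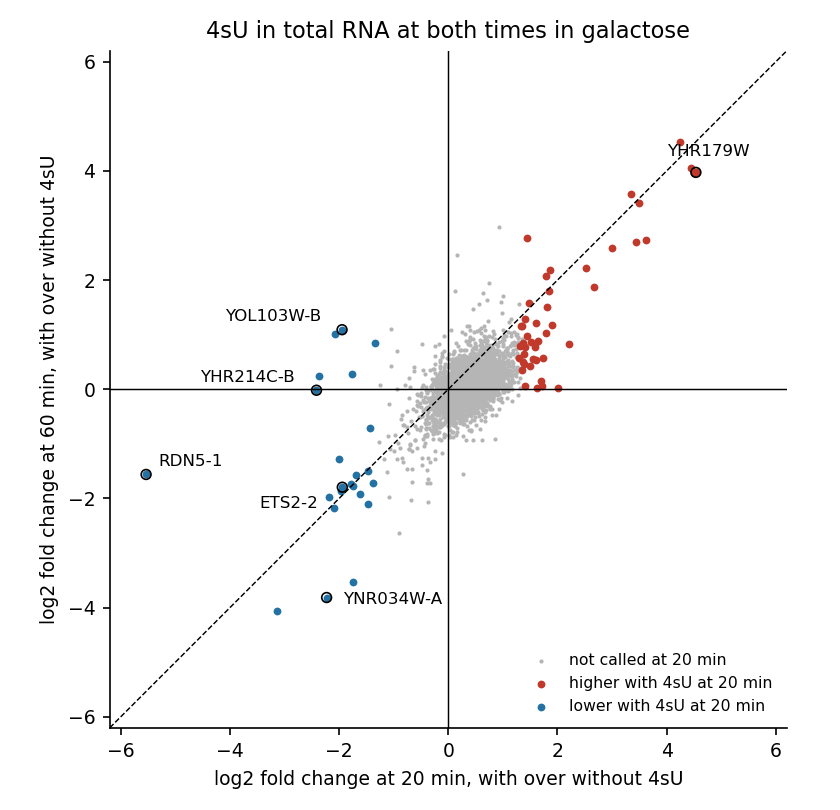
Log2 fold change at 60 min against that at 20 min, with over without 4sU in total RNA, for genes averaging at least 50 normalized counts at 20 min. Red and blue points are genes called higher and lower at 20 min, and the dashed line marks equal changes. Most red points lie above 0 at 60 min, while YOL103W-B and YHR214C-B, called lower at 20 min, lie at -0.02 or above at 60 min.

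The difference between the fold changes at 20 and 60 min was tested as an interaction, which called 12 genes (0.198%), 1 with a higher and 11 with a lower fold change at 20 min, and 173 had an unadjusted p under 0.05. Of the 12 genes, 4 had 1 library over 4 times the next and 8 had the same direction in both cultures. YOL103W-B had 35.8 and 7.02 normalized counts with 4sU at 20 min, against 28.1 and 130.1 without, and 364.8 and 388.2 with 4sU at 60 min, against 15.5 and 335.3 without. The libraries without 4sU thus spanned as wide a range as the groups did. YNL284C-B had 24.2 and 16.4 with 4sU at 20 min, against 100.4 and 70.6 without, and 28.9 and 36.7 with 4sU at 60 min, against 25.8 and 7.25 without. Here the groups did not overlap at either time, and the difference of -3.08 (edgeR adjusted p = 8.95e-04) was lost with DESeq2 (0.0720), without the 4sU library of replicate 2 at 20 min (0.0913) and without the no-4sU library of replicate 2 at 60 min (0.555). DESeq2 called 1 gene and the robust prior spread 2 genes, and with 1 library left out the count ran from 2 to 21. Leaving out the 4sU library of replicate 2 at 20 min gave 2 genes, and leaving out the no-4sU library of that replicate gave 21.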

How the data were processed

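RNA was isolated from W303 diploids mixed with 4sU-labeled S. pombe cells, depleted of ribosomal RNA and sequenced as strand-specific libraries. Per the study's methods, the authors mapped reads with HISAT2 2.0.4 and deposited raw counts per gene from featureCounts, with multi-mapping reads counted. They also deposited a normalized signal, these counts divided by S. pombe reads over 2000000. Of 7127 genes, 6069 were tested, after the study's filter of a nonzero count in 50% or more of the 24 libraries.

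Counts of the 8 total RNA libraries were fitted with edgeR 4.0.16 (R 4.3.3), with 1 mean per group, S. pombe totals as library sizes and adjustment over all genes. This main fit had no replicate block, so it did not use the pairing of the libraries. The study's own test between times likewise had time in galactose as its only term. The standard error is the size of the fold change over the root of the F statistic. Log2 ratios outside the fit used a pseudocount of 1. DESeq2 1.42.0 was an alternative, and others were TMM scaling, other filters, the 20 min libraries alone and each library left out. The 14 alternatives for the calls at 20 min do not include the fits without a library at 60 min. Those fits moved the calls at 20 min too, since the spread is shared. The spread comes from 2 cultures per group, whose libraries differed beyond sampling noise, so replicates limit the precision more than depth does. It was pooled fully over genes in the main fit, so no gene had an estimate of its own. The replicate numbers pair the libraries since portions of 1 culture were used. Deviations of same-numbered libraries correlated at 0.41 at 20 min and 0.29 at 60 min.

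Named genes were those with the largest changes among called genes that averaged at least 50 normalized counts, with groups that did not overlap, at most 2 IDs per direction. For the interaction they came from the 5 with the smallest p: RDN5-1, the first 2 reading frames, and YHR214C-B, which had been named at 20 min. Features whose ID is a name, and the 9 IDs paired with symbols, were added, in part after their values were seen. The members and lists were chosen with earlier results of these data known. Lists of gene symbols, haploid markers and GAL genes were not analysed here: the gene table to hand covers S. pombe. Of any such list at most 6 members could be matched, out of 18 old yellow enzymes and inducible oxidoreductases.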

Additional observations from a re-analysis of the deposited data

Results flagged for a closer look

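The log2 fold change with over without 4sU differed between 20 and 60 min for 12 genes in the interaction test of edgeR. RDN5-1 had a difference of -3.97 (adjusted p = 1.3e-05), which turned to 3.00 without the no-4sU library of replicate 1 at 20 min and was not called with the replicate block (adjusted p = 0.895 in edgeR). YOL103W-B had a difference of -3.04 (adjusted p = 1.6e-04), YNL284C-B one of -3.08 (adjusted p = 8.95e-04) and YHR214C-B one of -2.40 (adjusted p = 0.00859). For YOL103W-B the ratios of the cultures at 20 min had opposite signs, at 0.34 in replicate 1 and -4.03 in replicate 2. For YHR214C-B they had the same sign at 20 min, at -2.63 and -2.14, but opposite signs at 60 min. There it had 217.9 and 61.1 normalized counts with 4sU, against 34.7 and 250.0 without. Replicate 2 was lower with 4sU at both times, so the difference rested mainly on replicate 1. The differences of RDN5-1, YOL103W-B and YHR214C-B were not called with TMM scaling, DESeq2 or a robust prior spread, while that of YNL284C-B was called with TMM scaling and the robust prior spread and not with DESeq2.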

How the results depend on the processing

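Against 99 genes called at 20 min, 70 higher and 29 lower, TMM scaling gave 167 (80 and 87), DESeq2 161 (139 and 22), the replicate block 235 (198 and 37), the 20 min libraries alone 38 (24 and 14), these with the replicate block 1831 (1706 and 125), and TMM scaling with the replicate block 509 (246 and 263). The other filters and the robust prior spread stayed within 1.5 times. The older quasi-likelihood fit gave the same 70 higher and 29 lower genes as the main fit. It is counted in the 14 alternatives but is no separate check. With each library left out the count ran from 62 to 196, with 37 to 179 higher and 10 to 42 lower. Over all genes the median log2 fold change turned from 0.36 to -0.019 with TMM scaling and to -0.018 with TMM scaling and the block, and was 0.09 to 0.69 with a library left out. Against 78 genes at 60 min, TMM scaling gave 228, the replicate block 127, and TMM scaling with the block 538, and libraries left out gave 28 to 121. Against 12 genes in the interaction, TMM scaling gave 7, DESeq2 1, the robust prior spread 2 and TMM scaling with the block 41, and libraries left out gave 2 to 21. The log2 ratio of the summed totals, 0.21, was 0.37 without the 10 genes with the most counts. RDN5-1 turned from -5.53 to 1.43 at 20 min, and its difference between times from -3.97 to 3.00, without the no-4sU library of replicate 1, and with single libraries left out they ran from -7.86 to 1.43 and from -6.31 to 3.00. YHR179W, YPL171C and YNR034W-A were called in all 14 alternatives. The robust prior spread, TMM scaling with the block and the older fit were chosen after seeing the data. The causes of these changes were not tested. The block changed no other call of a named gene than those given above.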
